A study of Mus musculus with 16 samples.

Results

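Scleraxis (Scx) is a basic helix-loop-helix transcription factor that marks tendon progenitors and tenocytes, and it binds DNA at E-boxes together with broadly expressed partner proteins. In the mouse it is known for driving the tendon matrix programme, above all in the force-transmitting tendons, and the sites where tendon meets bone pass through cells that carry both tendon and cartilage genes. Tendon itself is mostly type I collagen, whose fibrils are shaped by minor collagens and by small leucine-rich proteoglycans, and elastic fibres, matricellular proteins and crosslinking enzymes complete the matrix.

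The comparison set the Achilles tendon of Scx-/- mice, labelled homoKO and called Scx KO here, against that of wild-type (Wt) littermates, both aged 2 weeks. It used all 4 bulk libraries of the 16 samples in the series, 2 of Scx KO and 2 of Wt, and the members were all 47729 genes of the count table, of which 14602 passed a filter on low counts and were tested. The other 12 samples were plates of single cells from ScxGFP iPSCs, which report Scx by green fluorescence, sorted as mesodermal cells (T0) or after 3, 6 or 9 days of TGF-β2 (T3, T6 and T9). The part of Scx that the allele removes, the strain, which mice were littermates and whether a library was 1 mouse are not given in the sources used here. The p-values therefore measure the spread between these libraries. Levels of the bulk libraries are counts per 1000000 counts (CPM) scaled by TMM, an edgeR factor that corrects for differences in composition. Levels of the single-cell plates are CPM without TMM. Fold changes are Scx KO relative to Wt on the log2 scale with the standard error. A gene was called at an adjusted p under 0.05 by the quasi-likelihood test of edgeR with Benjamini-Hochberg adjustment. With 2 libraries against 2, an exact permutation test of a single value cannot go below 0.333.

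Libraries held between 11188270 and 12398560 counts. Of the genes tested, 560 (3.84%) were called, 258 (1.77%) higher and 302 (2.07%) lower in Scx KO. These shares are the background for the counts of every list below. The libraries of both groups did not overlap in 49.3% of all genes tested, so non-overlap alone says little about a gene. Of the 560 calls, 253 remained with each library left out in turn, 121 of them higher and 132 lower, and the number of calls ranged from 380 without Wt 1 to 666 without Wt 2. The tissue mix also differed between libraries. A list of 26 skeletal muscle fibre genes took 5.87% and 9.55% of the counts in Wt and 11.8% and 12.4% in Scx KO, and 8 Schwann cell genes took 0.785% in KO 1 against 0.0318% in KO 2 and 0.124% and 0.115% in Wt. In whole tissue, fewer cells of a type and less RNA per cell cannot be told apart.

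Scx itself was lower in both Scx KO libraries and still present in them. The gene lies on the plus strand of chromosome 15 (GRCm38, chr15:76457452-76459458) within the span of Bop1, a ribosome biogenesis gene on the minus strand (chr15:76452989-76477277). Scx stood at 97.8 and 83.1 CPM in Wt and 23.04 and 26.1 CPM in Scx KO (log2 fold change -1.88 ± 0.17, adjusted p = 0.000429), a level 3.68-fold lower in Scx KO. The 2 groups were well apart and the 2 libraries of each were close, and the call remained without each library in turn. Counts outside a deleted part would be kept, so the reads left at Scx neither show nor exclude a working transcript. The strand setting of the counting is not stated, and reads of Bop1 and Scx may have been mixed where both genes are exonic. Bop1 stood at 41.4 and 41.2 CPM in Wt and 53.2 and 47.5 CPM in Scx KO (log2 fold change 0.29 ± 0.16, adjusted p = 0.409) and was not called. Within 1 Mb of Scx, 62 other genes were tested, and 1 was called. This was Mb, which encodes the oxygen store of muscle and lies 556029 bases away, at 463 and 451 CPM in Wt and 1109.8 and 1091 CPM in Scx KO (log2 fold change 1.27 ± 0.19, adjusted p = 0.0058).

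Tendon transcription factors fell in part. Of 14 members tested, Eya2, Mkx and the targeted gene itself, Scx, were called lower and none higher by edgeR. Higher members numbered 1 at an unadjusted p under 0.05 and 0 by DESeq2. The fitted log2 fold change was negative for 9 members and positive for 5. With Scx included, the median log2 fold change was -0.48, beside a median of -0.00 over all genes tested. Mkx, the homeobox factor that maintains tendon collagen, stood at 83.9 and 83.4 CPM in Wt and 23.4 and 28.1 CPM in Scx KO (log2 fold change -1.70 ± 0.17, adjusted p = 0.000672). Its 4 libraries fell into 2 tight pairs, with a drop close in size to that of Scx. Eya2, a transcriptional coactivator, stood at 19.1 and 17.8 CPM in Wt and 5.701 and 3.97 CPM in Scx KO (log2 fold change -1.93 ± 0.29, adjusted p = 0.00686). Six2, a factor it binds, was not called, with a log2 fold change of 0.29 ± 0.49. Egr1, a zinc finger factor that responds to mechanical load, stood at 75.5 and 21.8 CPM in Wt and 30.4 and 42.03 CPM in Scx KO (log2 fold change -0.42 ± 0.44, adjusted p = 0.683). The 2 groups overlapped for Egr1 and Wt 1 stood far above the rest, and without Wt 2 the gene was called lower (log2 fold change -1.06, edgeR adjusted p = 0.0270). Fos, another early response gene, was also highest in Wt 1, at 35.1 and 14.4 CPM in Wt and 17.5 and 14.7 CPM in Scx KO.

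Many tenocyte markers fell. The fitted log2 fold change was negative for all 12 members tested (median -1.12), and 7 were called lower and none higher by edgeR, with 0 higher also at an unadjusted p under 0.05 and by DESeq2. Tnmd, a type II membrane glycoprotein of mature tenocytes, stood at 1388 and 1286 CPM in Wt and 267 and 275 CPM in Scx KO and was 4.93-fold lower (log2 fold change -2.30 ± 0.20, adjusted p = 0.000284). The lowest Wt library lay far above the highest Scx KO library. Fmod, a proteoglycan that steers collagen fibril growth, stood at 5271 and 5039 CPM in Wt and 1377 and 1413 CPM in Scx KO (log2 fold change -1.89 ± 0.23, adjusted p = 0.00208). Its relative Kera stood at 566 and 627 CPM in Wt and 230.2 and 232 CPM in Scx KO (log2 fold change -1.37 ± 0.17, adjusted p = 0.00268). Wif1, a secreted inhibitor of Wnt ligands, stood at 297 and 299.7 CPM in Wt and 81.01 and 89.1 CPM in Scx KO (log2 fold change -1.81 ± 0.15, adjusted p = 0.000284). Both pairs of libraries agreed closely for each of the 4 genes, and none of the calls was lost when any library was left out.

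The list held still larger drops. Cilp2, a secreted matrix protein of the cartilage intermediate layer family, stood at 706 and 701 CPM in Wt and 61.6 and 54.6 CPM in Scx KO, 12.1-fold lower (log2 fold change -3.60 ± 0.19, adjusted p = 5.12e-05). Ptx4, a pentraxin, stood at 10.5 and 18.6 CPM in Wt and 0.642 and 0.5297 CPM in Scx KO (log2 fold change -4.60 ± 0.48, adjusted p = 0.000969). Abi3bp, a matrix protein that binds collagen, was called lower (log2 fold change -0.88 ± 0.17, adjusted p = 0.0216), but not without KO 1 (adjusted p = 0.104). Thbs4, a thrombospondin that organises tendon matrix, stood at 1494 and 1529 CPM in Wt and 933 and 954 CPM in Scx KO and was not called (log2 fold change -0.68 ± 0.20, adjusted p = 0.102), nor were Itgbl1, Fibin, Chodl and Ecm2.

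**Figure D1:**
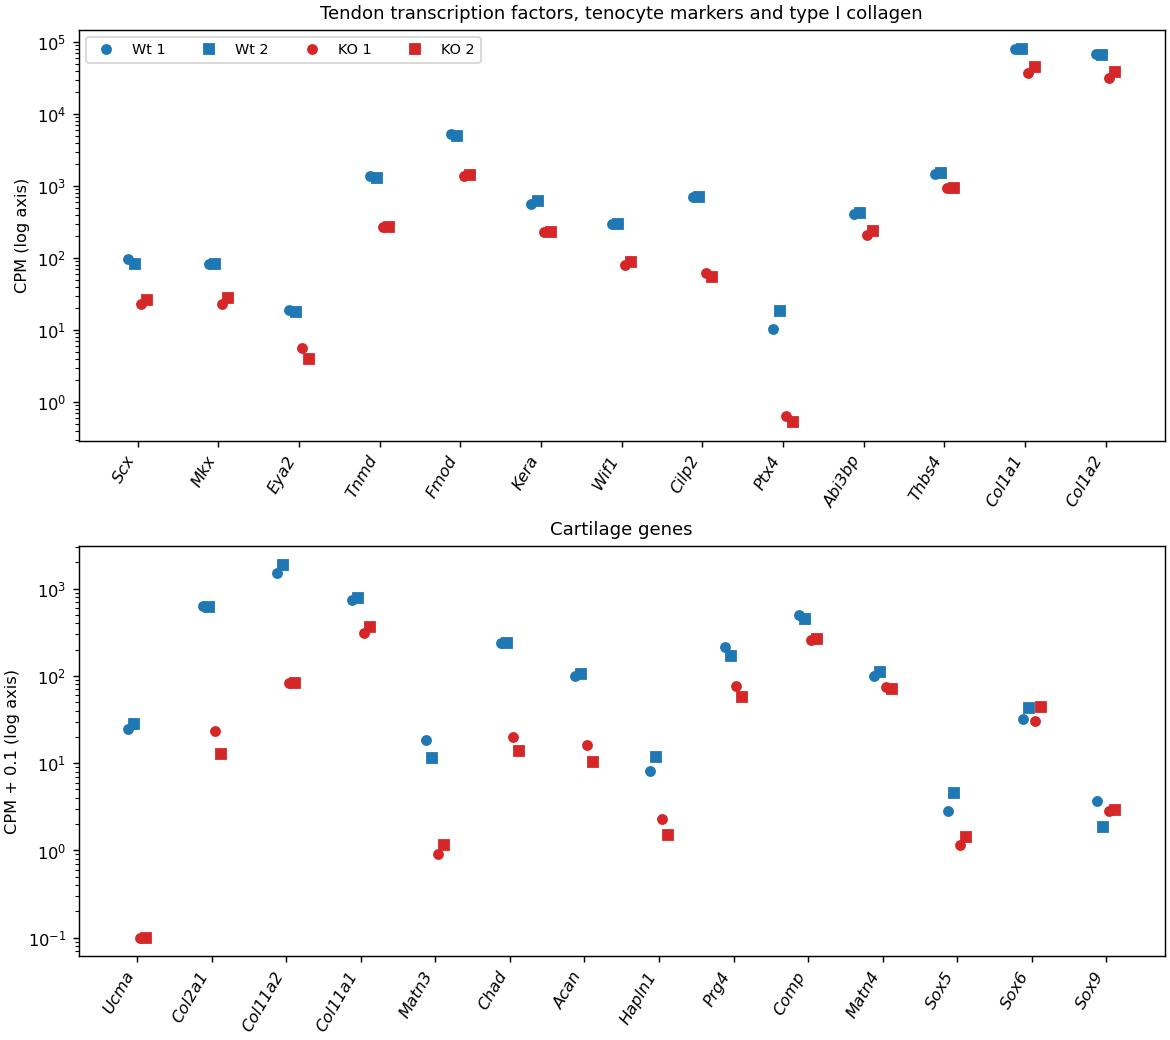
CPM on a log axis in each library for tendon genes (top) and CPM plus 0.1 for cartilage genes (bottom), with Wt libraries in blue and Scx KO libraries in red, replicate 1 as circles and replicate 2 as squares. Tnmd stood at 1388 and 1286 CPM in Wt and at 267 and 275 CPM in Scx KO, while Sox9 lay between 1.75 and 3.57 CPM in all 4 libraries.

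Fibrillar collagens moved in both directions, with 3 of 11 members called lower (Col2a1, Col11a2 and Col11a1) and 3 called higher (Col3a1, Col5a1 and Col5a2). Col1a1 and Col1a2, the chains of type I collagen, took 15.6% and 14.4% of all counts in Wt and 6.92% and 8.03% in Scx KO. Col1a1 stood at 80515 and 80266 CPM in Wt and 37243 and 45481 CPM in Scx KO and Col1a2 at 67753 and 66899 CPM in Wt and 31633 and 37982 CPM in Scx KO. The groups did not overlap for either chain, as in 49.3% of all genes tested. The levels were 1.94-fold lower for Col1a1 and 1.93-fold lower for Col1a2. Neither was called by edgeR (log2 fold change -0.96 ± 0.32, adjusted p = 0.148 for Col1a1, and log2 fold change -0.95 ± 0.31, adjusted p = 0.142 for Col1a2), with 95% intervals of -1.67 to -0.25 and -1.65 to -0.26. The call depended on the tool and the libraries, since DESeq2 called both (adjusted p = 9.34e-07 and 7.91e-07), and so did edgeR without Wt 1 (0.000156 and 0.000165) or without Wt 2 (0.000817 and 0.000804). The 2 chains stayed in proportion, with a ratio of Col1a1 to Col1a2, both in CPM per kilobase of exon, of 2.25 and 2.27 in Wt and 2.23 and 2.27 in Scx KO.

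Col3a1, the collagen of thin and healing fibrils, moved the other way, at 8112 and 5179 CPM in Wt and 15937 and 19302 CPM in Scx KO (log2 fold change 1.41 ± 0.31, adjusted p = 0.0378). Per kilobase of exon, Col3a1 was 6.74% and 4.31% of Col1a1 in the Wt libraries and 28.6% and 28.4% in the Scx KO libraries. Col5a1 and Col5a2, chains of the collagen that seeds new fibrils, stood at 835 and 605 CPM in Wt and 1635 and 2085 CPM in Scx KO (log2 fold change 1.37 ± 0.24, adjusted p = 0.015) and at 876 and 666 CPM in Wt and 1608 and 1999.9 CPM in Scx KO (log2 fold change 1.23 ± 0.23, adjusted p = 0.0203). Every Scx KO library lay above every Wt library for the 3 genes, beside groups that did not overlap in 49.3% of all genes tested. The call of Col3a1 was lost without KO 1 (adjusted p = 0.0757) and without KO 2 (0.124), and that of Col5a2 without KO 2 (0.051).

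Of 23 other collagens tested, 3 were called higher and none lower by edgeR (3 lower at an unadjusted p under 0.05, and 2 by DESeq2). Col8a1, a short-chain collagen of vessel walls and remodelling tissue, stood at 52.9 and 48.2 CPM in Wt and 272 and 336 CPM in Scx KO, 6.01-fold higher (log2 fold change 2.59 ± 0.17, adjusted p = 9.34e-05). Its partner chain Col8a2 stood at 83.5 and 94.5 CPM in Wt and 152 and 146 CPM in Scx KO (log2 fold change 0.75 ± 0.15, adjusted p = 0.0248) and was not called without Wt 1 (0.123) or KO 1 (0.0691). Col14a1, which sits on fibril surfaces, stood at 355 and 232 CPM in Wt and 686 and 942 CPM in Scx KO (log2 fold change 1.47 ± 0.25, adjusted p = 0.0128). Its relative Col12a1 stood at 682 and 733 CPM in Wt and 400.1 and 454 CPM in Scx KO and was not called (log2 fold change -0.73 ± 0.18, adjusted p = 0.0631). The abundant chains of collagen VI were not called, with log2 fold changes of 0.06 ± 0.22 (Col6a1), 0.45 ± 0.22 (Col6a2) and -0.03 ± 0.20 (Col6a3).

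**Figure D2:**
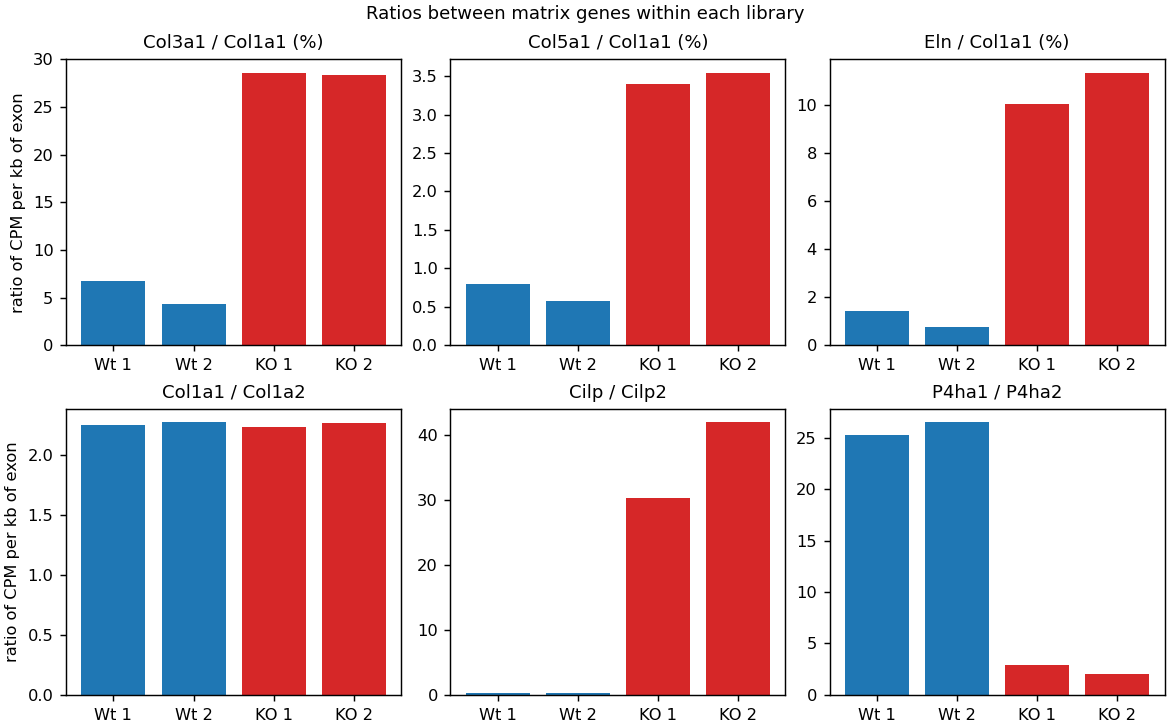
Ratio between 2 genes in each library, each gene in CPM per kilobase of exon, for 6 pairs, with Wt bars in blue and Scx KO bars in red and every axis starting at 0. Col3a1, Col5a1 and Eln rose against Col1a1 in both Scx KO libraries, Cilp rose against Cilp2, P4ha1 fell against P4ha2, and Col1a1 to Col1a2 stayed between 2.23 and 2.27.

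Small leucine-rich proteoglycans were split as the collagens were. Of 14 members tested, Chad, Fmod and Kera were called lower and Lum, Prelp and Aspn higher. Chad, a proteoglycan of cartilage that binds integrins, stood at 238 and 237 CPM in Wt and 20.1 and 13.7 CPM in Scx KO (log2 fold change -3.81 ± 0.21, adjusted p = 5.12e-05). Aspn, which restrains TGF-β and mineral deposition, stood at 141 and 116 CPM in Wt and 246 and 414 CPM in Scx KO (log2 fold change 1.36 ± 0.24, adjusted p = 0.0151). Lum, which shares collagen sites with Fmod, stood at 125 and 73.9 CPM in Wt and 247 and 216 CPM in Scx KO (log2 fold change 1.22 ± 0.23, adjusted p = 0.0208). Prelp, which anchors basement membranes, stood at 97.4 and 55.5 CPM in Wt and 155 and 213 CPM in Scx KO (log2 fold change 1.27 ± 0.26, adjusted p = 0.0287). Without KO 1 the call of Lum was lost (0.0536). The abundant members Dcn, 3157 and 3148 CPM in Wt and 3094 and 3543 CPM in Scx KO, and Bgn, 2068 and 1691 CPM in Wt and 2442 and 2637 CPM in Scx KO, were not called, with 95% intervals of the log2 fold change of -0.43 to 0.58 and -0.07 to 0.93.

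Of 30 collagen processing genes, 5 were called lower and 2 higher. The 2 prolyl 4-hydroxylase subunits that were called went in opposite directions. P4ha1 stood at 512 and 612 CPM in Wt and 191 and 166 CPM in Scx KO (log2 fold change -1.66 ± 0.19, adjusted p = 0.00134) and P4ha2 at 30.8 and 35.1 CPM in Wt and 99.96 and 124 CPM in Scx KO (log2 fold change 1.77 ± 0.17, adjusted p = 0.000663). The ratio of P4ha1 to P4ha2 per kilobase of exon was 25.3 and 26.5 in Wt and 2.90 and 2.03 in Scx KO. Lysyl oxidases, which crosslink collagen and elastin, were split too. Loxl1, the member known for elastic fibres, stood at 137 and 109 CPM in Wt and 336 and 404 CPM in Scx KO (log2 fold change 1.59 ± 0.18, adjusted p = 0.00173). Loxl4 stood at 19.6 and 14.9 CPM in Wt and 1.85 and 3.27 CPM in Scx KO (log2 fold change -2.76 ± 0.37, adjusted p = 0.00355) and Loxl2 at 602 and 642 CPM in Wt and 270.5 and 328 CPM in Scx KO (log2 fold change -1.05 ± 0.18, adjusted p = 0.0144), while Lox was not called (log2 fold change -0.44 ± 0.19, adjusted p = 0.274). Pcolce2, an enhancer of procollagen cleavage, stood at 116 and 109.5 CPM in Wt and 23.04 and 24.7 CPM in Scx KO (log2 fold change -2.24 ± 0.16, adjusted p = 9.83e-05), and its relative Pcolce was not called (log2 fold change 0.22 ± 0.20, adjusted p = 0.619). The call of Loxl2 was lost without KO 1 (0.0752), and that of Creb3l1, a factor for collagen secretion, with any 1 library left out (0.0612 to 0.160).

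Among 18 matricellular proteins, 3 were called higher and 4 lower. Cilp, the relative of Cilp2, stood at 157 and 203 CPM in Wt and 1840.2 and 2259 CPM in Scx KO, 11.4-fold higher (log2 fold change 3.51 ± 0.24, adjusted p = 9.83e-05). The ratio of Cilp to Cilp2 per kilobase of exon was 0.225 and 0.293 in Wt and 30.3 and 42.0 in Scx KO. Postn, a matrix protein of healing and of periosteum, stood at 1073 and 680.3 CPM in Wt and 2236 and 3095 CPM in Scx KO (log2 fold change 1.60 ± 0.28, adjusted p = 0.0149). Ccn5, a CCN family member, stood at 12.2 and 9.02 CPM in Wt and 48.98 and 74.9 CPM in Scx KO (log2 fold change 2.55 ± 0.25, adjusted p = 0.000675). Ccn4, another CCN member, stood at 57.7 and 64.7 CPM in Wt and 22.2 and 22.7 CPM in Scx KO (log2 fold change -1.45 ± 0.17, adjusted p = 0.00166). Comp and Thbs1 were called lower with smaller changes (log2 fold change -0.86 ± 0.17, adjusted p = 0.0231, and log2 fold change -0.80 ± 0.18, adjusted p = 0.0416), but Comp was not called without KO 1 (0.0823) or KO 2 (0.0653), nor Thbs1 without Wt 1 (0.131) or KO 1 (0.159).

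Elastic fibre genes rose or were not called. Of 17 members tested, 3 were called higher and none lower by edgeR (1 lower at an unadjusted p under 0.05, and 0 by DESeq2). Eln, the elastic core protein, stood at 1435 and 763 CPM in Wt and 4614 and 6378 CPM in Scx KO, 5.000-fold higher (log2 fold change 2.32 ± 0.34, adjusted p = 0.00553). Its level per kilobase of exon was 1.45% and 0.770% of that of Col1a1 in Wt and 10.0% and 11.4% in Scx KO. Mfap5, a microfibril protein, stood at 165 and 155 CPM in Wt and 404 and 441 CPM in Scx KO (log2 fold change 1.40 ± 0.16, adjusted p = 0.00174) and Ltbp2, which takes part in microfibril assembly, at 9.18 and 3.51 CPM in Wt and 24.01 and 28.7 CPM in Scx KO (log2 fold change 2.05 ± 0.38, adjusted p = 0.0197). The main microfibril gene Fbn1 was not called (log2 fold change 0.42 ± 0.21, adjusted p = 0.347). Of 19 basement membrane genes, 1 was called, beside 3.84% of all genes tested. This was Lama2, the laminin chain around muscle fibres, at 120.2 and 143 CPM in Wt and 244 and 257 CPM in Scx KO (log2 fold change 0.93 ± 0.16, adjusted p = 0.0121). The libraries differ in muscle share, and the part of that share in the change of Lama2 was not tested. Of 29 matrix proteases and inhibitors, 3 were called lower (Adamts9, Timp4 and Adamts6) and 3 higher (Adamts17, Adamts16 and Adamts19). Adamts17 stood at 11.8 and 14.6 CPM in Wt and 37.3 and 41.9 CPM in Scx KO (log2 fold change 1.58 ± 0.20, adjusted p = 0.00271) and Adamts9, an aggrecan-cleaving protease, at 41.04 and 45.3 CPM in Wt and 19.3 and 19.6 CPM in Scx KO (log2 fold change -1.15 ± 0.17, adjusted p = 0.00634), and the calls of the other 4 were lost without 1 library or another, with an adjusted p of up to 0.257 for Adamts6 (without Wt 2), 0.0838 for Timp4 (without Wt 1), 0.0543 for Adamts16 (without KO 2) and 0.114 for Adamts19 (without Wt 1).

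Many cartilage genes fell steeply. Of 19 members tested, 10 were called lower and none higher by edgeR (0 higher also at an unadjusted p under 0.05 and by DESeq2), with a median log2 fold change of -1.53. Ucma, a secreted protein of chondrocytes, stood at 24.6 and 28.2 CPM in Wt and 0 and 0 CPM in Scx KO. The 2 Wt libraries held 628 counts and both Scx KO libraries held 0, which makes it at least 210-fold lower against a floor of 3 counts over the group. Col2a1, the main cartilage collagen, stood at 626 and 611 CPM in Wt and 23.3 and 12.8 CPM in Scx KO and was 34.3-fold lower (log2 fold change -5.09 ± 0.29, adjusted p = 5.18e-05). Col11a2, a chain of the minor fibrils within cartilage, stood at 1497 and 1884 CPM in Wt and 83.7 and 83.2 CPM in Scx KO, 20.3-fold lower (log2 fold change -4.34 ± 0.23, adjusted p = 5.12e-05). Its partner Col11a1 stood at 749 and 783 CPM in Wt and 308 and 359 CPM in Scx KO (log2 fold change -1.20 ± 0.18, adjusted p = 0.00707). Acan, the large aggregating proteoglycan, stood at 99.00 and 106 CPM in Wt and 16.1 and 10.3 CPM in Scx KO, 7.77-fold lower (log2 fold change -2.95 ± 0.22, adjusted p = 0.000137). Both Scx KO libraries lay below both Wt libraries for these 5 genes, beside groups that did not overlap in 49.3% of all genes tested. Matn3, a matrilin, stood at 18.3 and 11.4 CPM in Wt and 0.803 and 1.06 CPM in Scx KO (log2 fold change -3.99 ± 0.43, adjusted p = 0.00115). Prg4, the joint lubricant, stood at 217 and 169 CPM in Wt and 77.3 and 56.8 CPM in Scx KO (log2 fold change -1.53 ± 0.20, adjusted p = 0.00296). Hapln1, the link protein of Acan, stood at 8.07 and 11.6 CPM in Wt and 2.17 and 1.41 CPM in Scx KO and lost its call without Wt 2 (0.0917). Chad and Comp, given above, were the other members called, and the call of Comp was lost without KO 1 or KO 2. Col2a1, Col11a2, Col11a1, Chad and Comp are also counted in the lists above, and Prg4 in the tendon sheath list below. Some genes are in more than 1 list, so the counts of lists are not independent.

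None of the Sox factors that drive cartilage was called. Sox9, the regulator of chondrogenesis, stood at 3.57 and 1.75 CPM in Wt and 2.73 and 2.83 CPM in Scx KO (log2 fold change 0.06 ± 0.59, adjusted p = 0.971), with overlapping groups and a 95% interval of -1.26 to 1.38 that leaves room for a change of more than 2-fold either way. Sox6 was also not called (log2 fold change -0.03 ± 0.23, adjusted p = 0.97), nor was Sox5, at 2.72 and 4.51 CPM in Wt and 1.04 and 1.32 CPM in Scx KO (log2 fold change -1.60 ± 0.62, adjusted p = 0.219). Collagen IX chains, typical of hyaline cartilage, lay between 1.06 and 6.42 CPM in all libraries, and none was called. Matn1 and Snorc held 0 counts in every library. Of 7 genes of hypertrophic cartilage and bone tested, none was called by edgeR or DESeq2, 2 were higher at an unadjusted p under 0.05, and each stood below 12 CPM in every library.

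Most signalling lists held called genes in both directions, beside 3.84% called of all genes tested. Of 22 TGF-β pathway genes, 2 were called lower (Tgfbr3 and Inhba) and 1 higher (Pmepa1). The ligands Tgfb2 and Tgfb3 were not called, with log2 fold changes of -0.07 ± 0.16 and 0.24 ± 0.16, and the receptors Tgfbr1 and Tgfbr2 had -0.41 ± 0.17 and -0.30 ± 0.15. Tgfbr3, a coreceptor, had log2 fold change -0.80 ± 0.15, adjusted p = 0.0175, but was not called without Wt 2 (0.0604). Inhba, an activin subunit, lost its call without any 1 library (up to 0.164, without Wt 2), and Pmepa1, a feedback inhibitor, without Wt 2 (0.142) or KO 2 (0.0667). Of 25 BMP and GDF genes, 3 were called lower and 2 higher. The ligand Bmp6 stood at 18.7 and 19.4 CPM in Wt and 5.46 and 4.77 CPM in Scx KO (log2 fold change -1.90 ± 0.27, adjusted p = 0.00486). The receptor Bmpr1b stood at 24.8 and 34.4 CPM in Wt and 9.47 and 4.59 CPM in Scx KO (log2 fold change -2.07 ± 0.34, adjusted p = 0.00996) and the antagonist Chrdl1 at 36.5 and 34.1 CPM in Wt and 14.2 and 16.4 CPM in Scx KO (log2 fold change -1.20 ± 0.19, adjusted p = 0.00908), while the ligand Gdf11 stood at 24.6 and 34.6 CPM in Wt and 66.2 and 95.97 CPM in Scx KO (log2 fold change 1.45 ± 0.23, adjusted p = 0.00827). All Scx KO libraries lay below both Wt libraries for the first 3 and above them for Gdf11, and these 4 calls remained without each library. Groups did not overlap in 49.3% of all genes tested. Fst, an activin antagonist, was the other member called higher, and its call was lost without any 1 library (up to 0.201, without Wt 2). Gdf5 and Gdf7, ligands of joints and tendons, were at or below 1.61 CPM or left out by the filter. Gdf6, of the same list, was not called by edgeR (adjusted p = 0.0649). It was called higher by DESeq2 (log2 fold change 3.94, adjusted p = 0.0101).

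Secreted modulators of Wnt ligands were called on both sides. Of 22 Wnt genes, 3 were lower and 2 higher. Dkk2, an antagonist of the Lrp coreceptors, stood at 70.6 and 69.1 CPM in Wt and 21.3 and 17.8 CPM in Scx KO (log2 fold change -1.84 ± 0.17, adjusted p = 0.000533), close in size to the drop of Wif1 above, and Nkd2, an intracellular inhibitor, at 25.7 and 31.1 CPM in Wt and 11.3 and 8.03 CPM in Scx KO (log2 fold change -1.55 ± 0.25, adjusted p = 0.009). Sfrp4, a secreted antagonist, stood at 37.1 and 18.5 CPM in Wt and 252 and 156 CPM in Scx KO (log2 fold change 2.87 ± 0.33, adjusted p = 0.00158). Rspo2, an agonist, stood at 0.3399 and 0.417 CPM in Wt and 4.34 and 5.12 CPM in Scx KO and lost its call without Wt 1 (0.0620) or KO 2 (0.0610). The pathway target Axin2 was not called (log2 fold change -0.02 ± 0.33, adjusted p = 0.984). In the retinoic acid list of 17, 4 genes were lower and 1 higher. Crabp1, a retinoic acid carrier, stood at 68.1 and 86.9 CPM in Wt and 11.5 and 11.5 CPM in Scx KO (log2 fold change -2.75 ± 0.19, adjusted p = 9.83e-05), and Cyp26a1 and Cyp26b1, which degrade retinoic acid, at 26.9 and 21.2 CPM in Wt and 5.46 and 5.03 CPM in Scx KO (log2 fold change -2.19 ± 0.26, adjusted p = 0.00182) and 26.00 and 27.7 CPM in Wt and 10.8 and 12.8 CPM in Scx KO (log2 fold change -1.18 ± 0.22, adjusted p = 0.0174). The synthesis enzyme Aldh1a2 was not called (log2 fold change -0.04 ± 0.43, adjusted p = 0.977), and Aldh1a1 was called lower but not without any 1 library (up to 0.170, without Wt 2). The call of Cyp26b1 was lost without Wt 2 (0.0618).

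Igfbp2 was called higher (log2 fold change 1.53 ± 0.18, adjusted p = 0.00174) and Igfbp3 lower (log2 fold change -0.73 ± 0.15, adjusted p = 0.0307) among 10 IGF genes, and Igfbp3 was not called without KO 1 (0.125) or KO 2 (0.0636). Of 15 FGF genes, Fgfr2 and Spry4 were called lower and Fgf7 higher, and without Wt 1 all 3 calls were lost (adjusted p of 0.108, 0.231 and 0.127). None of 11 hedgehog genes or 20 cell cycle genes was called by edgeR or DESeq2. At an unadjusted p under 0.05, 1 and 5 were higher, in that order. The fitted log2 fold change was positive for 19 of the 20 cell cycle genes (median 0.34, beside -0.004 over all genes tested). The proliferation gene Mki67 stood at 41.6 and 42.6 CPM in Wt and 57.97 and 67.8 CPM in Scx KO (log2 fold change 0.58 ± 0.16, adjusted p = 0.0934).

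**Figure D3:**
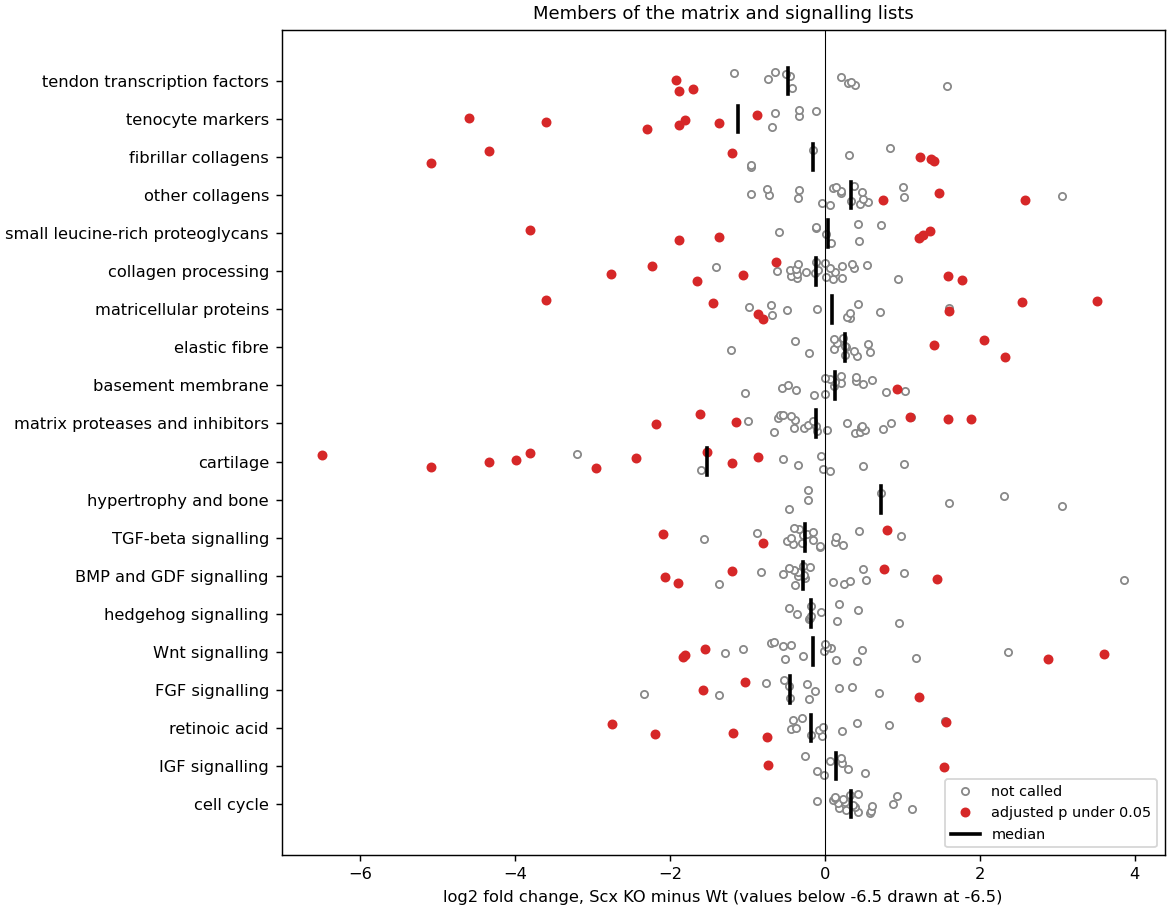
Log2 fold change (Scx KO minus Wt) of each member tested of 20 matrix and signalling lists, with called genes in red, other genes as open circles and the median of each list as a black bar. The bars of the tenocyte markers (-1.12) and cartilage genes (-1.53) lie left of 0, and the called members of the elastic fibre list lie right of it.

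Muscle genes differed in kind as well as amount. Many slow fibre genes fell steeply, while fast fibre genes were not called and many genes of young fibres and of the neuromuscular synapse rose. These 3 lists were chosen after the values were seen and carry no test of their own. Of 12 slow fibre genes, 7 were called lower and 1 higher. Myh7, the slow myosin heavy chain, stood at 2196 and 960.5 CPM in Wt and 45.7 and 8.299 CPM in Scx KO (log2 fold change -5.86 ± 0.75, adjusted p = 0.00271). Its light chains Myl2 and Myl3 stood at 1157 and 406 CPM in Wt and 22.96 and 9.18 CPM in Scx KO and 903 and 317 CPM in Wt and 21.6 and 10.3 CPM in Scx KO. The Wt libraries themselves differed by more than 2-fold, with Wt 1 the higher, but both lay far above Scx KO. Of 12 fast fibre genes none was called by edgeR (5 higher at an unadjusted p under 0.05, and 2 by DESeq2). Myh4, the fast myosin, stood at 1902 and 10564 CPM in Wt and 8938 and 10837 CPM in Scx KO (log2 fold change 0.67 ± 0.60, adjusted p = 0.628), with Wt 1 alone low. The fast fibre genes together took 2.74% and 6.00% of counts in Wt and 7.60% and 7.99% in Scx KO. The slow fibre genes took 0.918% and 0.395% in Wt and 0.176% and 0.164% in Scx KO.

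The broader list of 26 muscle fibre genes, which overlaps both, had 5 calls lower, all slow fibre genes, and 2 higher (Mb and Myh8), and the list of 4 muscle progenitor genes had 2 higher (Myog and Myod1). Myod1, a factor of the myoblast lineage, lost its call without Wt 1 (0.231), KO 1 (0.0624) or KO 2 (0.0707).

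Of 26 genes of young fibres and synapses, 12 were called higher and none lower by edgeR (1 lower at an unadjusted p under 0.05, and 0 by DESeq2), with a median log2 fold change of 1.02. Myog, the differentiation factor of myoblasts, stood at 24.98 and 34.1 CPM in Wt and 105 and 94.03 CPM in Scx KO (log2 fold change 1.75 ± 0.19, adjusted p = 0.00105). Myh8, the perinatal myosin, stood at 1346 and 1365 CPM in Wt and 3203 and 3401 CPM in Scx KO (log2 fold change 1.28 ± 0.22, adjusted p = 0.0117) and Myl4, an embryonic light chain, at 61.4 and 66.3 CPM in Wt and 320.4 and 283 CPM in Scx KO (log2 fold change 2.24 ± 0.16, adjusted p = 0.000112). Chrne, the adult acetylcholine receptor subunit, stood at 1.700 and 1.67 CPM in Wt and 16.2 and 11.8 CPM in Scx KO (log2 fold change 3.05 ± 0.38, adjusted p = 0.0022). Colq, the anchor of acetylcholinesterase, stood at 6.97 and 3.92 CPM in Wt and 23.2 and 26.05 CPM in Scx KO (log2 fold change 2.18 ± 0.31, adjusted p = 0.00479). Tnnt2, the cardiac and embryonic troponin T, stood at 14.3 and 10.4 CPM in Wt and 63.1 and 67.01 CPM in Scx KO (log2 fold change 2.40 ± 0.20, adjusted p = 0.000262). For all 6 genes both Scx KO libraries lay above both Wt libraries. These are called genes of a list chosen after the values were seen, and groups did not overlap in 49.3% of all genes tested. Myh3, the embryonic myosin, stood at 749 and 402 CPM in Wt and 1012 and 670.1 CPM in Scx KO and overlapped (log2 fold change 0.55 ± 0.31, adjusted p = 0.408). How much of these differences goes with the muscle share of the libraries was not tested.

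Marker lists of other cell types differed between the groups in some cases and between single libraries in others. The fitted log2 fold change was negative for all 9 adipocyte genes (median -1.86) and all 10 endothelial genes (median -0.59). At an unadjusted p under 0.05, 9 and 8 were lower, in that order. Adipocyte genes took 0.365% and 0.158% of counts in Wt and 0.1001% and 0.0514% in Scx KO, and 4 of 9 were called lower by edgeR and 2 by DESeq2. Plin4, a lipid droplet protein, kept its call without each library (log2 fold change -1.06 ± 0.18, adjusted p = 0.0103), while Fabp4, 1747 and 887 CPM in Wt and 526 and 309 CPM in Scx KO, did not without KO 2 (adjusted p = 0.0746) or by DESeq2 (0.0845). The calls of Plin1, of lipid droplets too, and Pparg, the adipocyte regulator, were lost without Wt 1 (0.0505 and 0.224), and that of Plin1 also by DESeq2 (0.132). The endothelial genes Tek and Kdr were called lower (log2 fold change -0.73 ± 0.16, adjusted p = 0.0374, and log2 fold change -0.64 ± 0.15, adjusted p = 0.0444), and both calls were lost with any 1 library left out (up to 0.185 and 0.191, without Wt 1). None of 8 Schwann cell genes, 10 macrophage and leukocyte genes or 6 red blood cell genes was called by edgeR or DESeq2, with 1 red blood cell gene lower at an unadjusted p under 0.05. The tendon sheath list of 5 had 1 call, Prg4. Acta2, the smooth muscle actin, was the only call among 9 smooth muscle and pericyte genes, at 501 and 343 CPM in Wt and 240.1 and 154 CPM in Scx KO (log2 fold change -1.10 ± 0.25, adjusted p = 0.0447), and it was lost without Wt 1 (0.108) or KO 2 (0.129). Of 9 general fibroblast genes, Dpt, which binds decorin and collagen, was called higher (log2 fold change 1.00 ± 0.19, adjusted p = 0.0206) and Dpp4, a surface peptidase, lower (log2 fold change -1.67 ± 0.25, adjusted p = 0.0058). Among 10 immediate early and stress genes, Atf3 was called higher (log2 fold change 0.92 ± 0.18, adjusted p = 0.0215), but not without Wt 2 (0.105). Sox11, a progenitor factor, stood at 6.798 and 7.76 CPM in Wt and 16.5 and 14.2 CPM in Scx KO and was not called (log2 fold change 1.07 ± 0.27, adjusted p = 0.0663), and Hmga2 did not pass the filter.

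**Figure D4:**
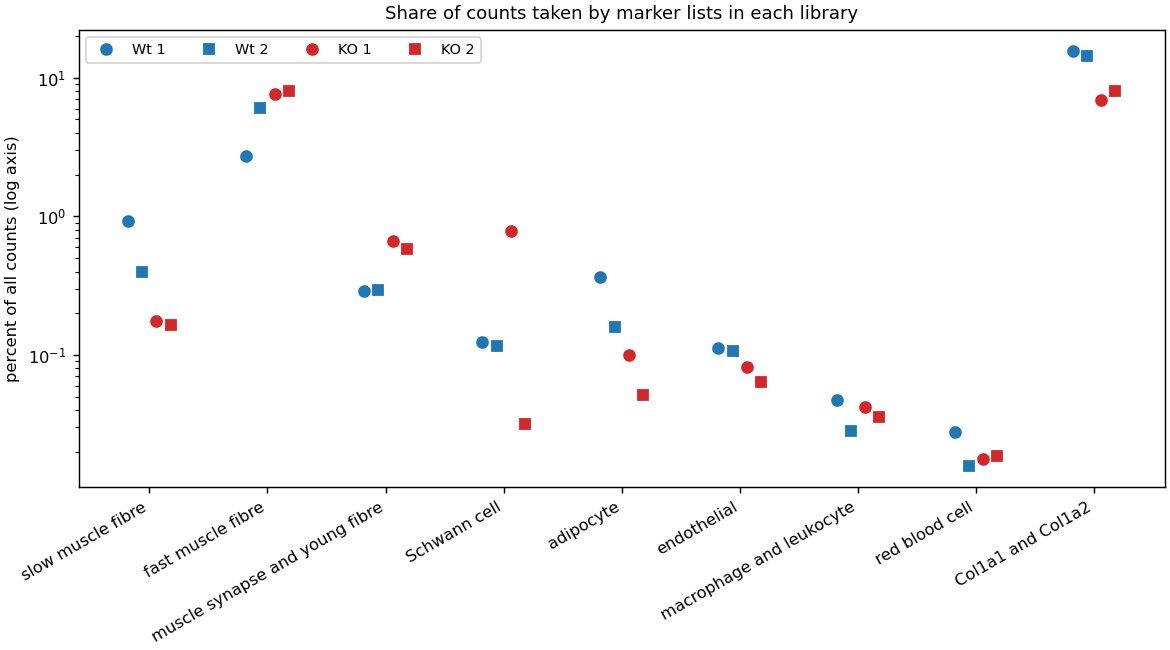
Percent of all counts taken by marker lists and by type I collagen in each library, on a log axis, with Wt in blue and Scx KO in red. KO 1 stands apart for Schwann cell genes (0.785%), Wt 1 for slow muscle fibre genes (0.918%), and Col1a1 with Col1a2 falls from 15.6% and 14.4% to 6.92% and 8.03%.

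The genes named next are from the 15 largest changes each way outside the lists, other than those chosen after the values were seen. Only called genes whose groups do not overlap could enter, so a gap between the groups is part of the choice. Among those lower were Car9, a carbonic anhydrase induced by low oxygen, at 57.6 and 54.7 CPM in Wt and 1.36 and 2.56 CPM in Scx KO (log2 fold change -4.84 ± 0.28, adjusted p = 5.18e-05). Clec3a, a cartilage lectin, stood at 65.3 and 37.6 CPM in Wt and 2.41 and 2.56 CPM in Scx KO (log2 fold change -4.37 ± 0.32, adjusted p = 0.00012). Rnf112, a ring finger protein, stood at 60.4 and 88.6 CPM in Wt and 6.42 and 6.89 CPM in Scx KO (log2 fold change -3.48 ± 0.23, adjusted p = 9.34e-05). The libraries of a group lay within 2-fold of each other for all 3 genes. Slc7a11, the cystine transporter, stood at 13.9 and 16.9 CPM in Wt and 1.204 and 1.501 CPM in Scx KO (log2 fold change -3.50 ± 0.37, adjusted p = 0.000984). Syt7, a calcium sensor of exocytosis, stood at 19.5 and 21.4 CPM in Wt and 1.61 and 1.77 CPM in Scx KO (log2 fold change -3.59 ± 0.31, adjusted p = 0.000304). Spock3, a matrix proteoglycan, stood at 22.1 and 15.9 CPM in Wt and 2.09 and 1.59 CPM in Scx KO (log2 fold change -3.36 ± 0.35, adjusted p = 0.000894). Phyhip, Atp6v0a4, Myl3, Brinp3, Ooep, Chst5, Pitpnm3, Oit3 and Pck1 completed the list, with log2 fold changes from -6.66 (Phyhip) to -3.04 (Pck1). Phyhip and Atp6v0a4 had 0 counts in KO 2.

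Among those higher, Th, tyrosine hydroxylase, which makes catecholamines, held 3 counts over both Wt libraries and 623 over both Scx KO libraries, a ratio of 207 with a 95% counting interval of 70.6 to 1008. It stood at 0.08498 and 0.167 CPM in Wt and 30.4 and 21.5 CPM in Scx KO. Ripply1, a transcriptional repressor of somite formation, stood at 1.36 and 1.002 CPM in Wt and 31.9 and 25.96 CPM in Scx KO (log2 fold change 4.60 ± 0.31, adjusted p = 9.34e-05). Ankrd1, a stretch-responsive ankyrin repeat protein of muscle, stood at 6.03 and 11.7 CPM in Wt and 99.7 and 90.1 CPM in Scx KO (log2 fold change 3.42 ± 0.28, adjusted p = 0.000243). Mss51, a muscle mitochondrial protein, stood at 5.27 and 6.68 CPM in Wt and 55.9 and 56.3 CPM in Scx KO (log2 fold change 3.23 ± 0.20, adjusted p = 7.93e-05). Lrrc15, a fibroblast membrane protein, stood at 6.203 and 3.51 CPM in Wt and 24.6 and 39.3 CPM in Scx KO (log2 fold change 2.72 ± 0.34, adjusted p = 0.00226). The gap between the groups is part of the choice for these 5 as well. Cldn2, Tal2, Rab27a, Chrne, Cldn10, Cxcl9, Hsf2bp, Perp and Tnnt2 were others of the 15, and the call of Cxcl9 was lost without KO 2 (0.0808). Dsp, a desmosome protein, and Trp63, a p53 family factor, from the keratinocyte list rose as well. Dsp stood at 0.8498 and 0.167 CPM in Wt and 55.4 and 41.9 CPM in Scx KO (log2 fold change 6.56 ± 0.43, adjusted p = 8.52e-05) and Trp63 at 6.798 and 6.43 CPM in Wt and 30.6 and 39.4 CPM in Scx KO (log2 fold change 2.40 ± 0.23, adjusted p = 0.000651), while Krt5 and Krt14, the defining keratins of that cell type, held 0 counts in both Wt libraries, 11 and 21 counts in KO 1 and 1 and 0 counts in KO 2.

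The genes called in tendon were also read in the single cells, where TGF-β2 was added for 9 days. This is a description across another assay, cell type and age, and its CPM were not corrected for differences in composition between the times. Of 10163 genes tested in tendon with a mean of at least 5 CPM over the 12 plates, the 3 plates of T9 lay all above the 3 of T0 in 17.8% and all below in 48.0%. Of the 175 such genes lower in Scx KO, T9 lay above T0 in 44.0% (77 genes) and below in 26.9%. Of the 147 higher in Scx KO, it lay above in 42.9% (63 genes) and below in 23.8%. The share above T0 was thus close in the 2 sets and above that of all genes in both, and no test was made of it.

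Named genes of both sets stood higher at T9. Tnmd stood at 0, 0 and 0 CPM at T0 and 147, 100.2 and 71.9 CPM at T9, Fmod at 0.429, 0.694 and 0 CPM at T0 and 105, 81.2 and 182 CPM at T9 and Mkx at 4.08, 4.86 and 2.42 CPM at T0 and 33.9, 28.2 and 27.2 CPM at T9, and all 3 were lower in Scx KO. Of genes higher in Scx KO, Eln stood at 0.429, 0.694 and 0 CPM at T0 and 852, 689 and 1802 CPM at T9, Cilp at 0.215, 0 and 0.269 CPM at T0 and 242, 275 and 434 CPM at T9 and Postn at 5.58, 3.703 and 2.69 CPM at T0 and 1451, 1099 and 1939 CPM at T9. Cartilage genes that were lower in Scx KO went both ways. Col2a1 stood at 13.9, 11.6 and 12.9 CPM at T0 and 0.272, 0.963 and 0.332 CPM at T9, and Acan at most 1.66 CPM in every plate of T0 and T9. Col11a1 stood at 46.1, 43.04 and 45.98 CPM at T0 and 201, 172 and 434 CPM at T9, and Prg4 at 4.51, 0.694 and 2.15 CPM at T0 and 32.6, 15.1 and 48.7 CPM at T9, both with every T9 plate above every T0 plate. Chad, of the leucine-rich proteoglycans, stood at 0, 0 and 0 CPM at T0 and 9.23, 8.67 and 14.9 CPM at T9. Cilp2, so abundant in Wt tendon, stood between 0.807 and 4.40 CPM in the plates of T0 and T9.

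**Figure D5:**
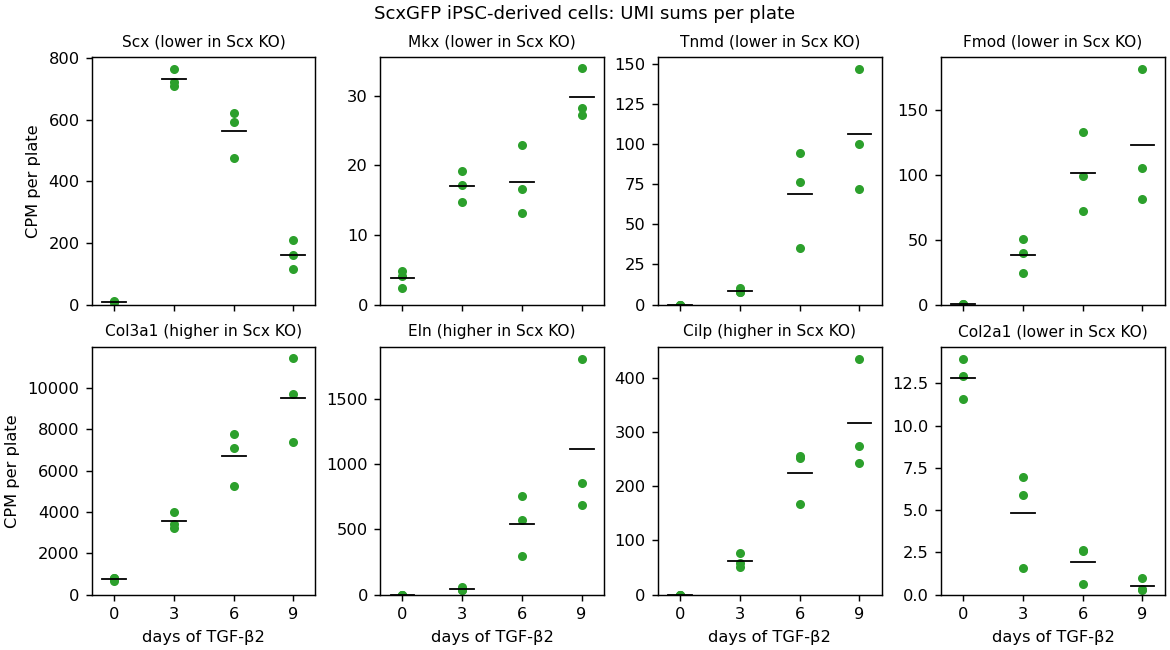
CPM of UMIs summed over the cells of each plate (points, 3 plates a time) against days of TGF-β2, with the mean as a bar, for 8 genes called in the tendon comparison. Tnmd, Fmod and Mkx, lower in Scx KO, and Col3a1, Eln and Cilp, higher in Scx KO, all stood higher at T9 than at T0, and Col2a1 stood lower.

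E-boxes were searched as letters in RefSeq promoter windows (GRCm38.p6), from 250 bases before to 50 after each start, with 13962 windows of genes tested. The letters CAGATG or CATCTG, a motif and its reverse complement, were in 14.6% of windows of genes lower in Scx KO (43 of 295) and 9.88% of those higher (25 of 253), beside 11.9% of windows of all genes tested and 17.2% of all 32851 windows. Any CANNTG, which includes the former, was in 67.5%, 71.5%, 64.4% and 72.3%, in that order. CAGCTG, chosen after the called genes were seen, was in 15.6% and 24.1% of windows of genes lower and higher, beside 16.0% of all genes tested. A match is a description of letters and not of binding. The 250 bases before the start are shown for 3 tendon and cartilage genes that fell in Scx KO. Letters of CAGATG or CATCTG are in capitals. Fmod and Ucma are examples of windows that hold these letters, and Tnmd of a window without any CANNTG. The same bases of Chad, Acan and Col11a2, which also fell, were read as well. They held no CAGATG or CATCTG and are not shown. The study states, from earlier work, that Scx binds E-boxes upstream of mouse Tnmd. Bases further from the start were not searched here, so the window does not speak to those sites.
Fmod, chr1:134037004-134037253, plus strand: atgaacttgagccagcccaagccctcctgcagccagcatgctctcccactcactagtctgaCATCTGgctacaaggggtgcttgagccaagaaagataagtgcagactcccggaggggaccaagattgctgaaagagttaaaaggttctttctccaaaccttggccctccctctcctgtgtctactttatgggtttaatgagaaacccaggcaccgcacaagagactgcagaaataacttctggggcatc
Ucma, chr2:4975872-4976121, plus strand: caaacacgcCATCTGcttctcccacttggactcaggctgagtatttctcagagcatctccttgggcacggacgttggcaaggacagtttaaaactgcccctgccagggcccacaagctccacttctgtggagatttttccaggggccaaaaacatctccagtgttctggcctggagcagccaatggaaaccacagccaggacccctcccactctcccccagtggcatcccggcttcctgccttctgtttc
Tnmd, chrX:133850758-133851007, plus strand: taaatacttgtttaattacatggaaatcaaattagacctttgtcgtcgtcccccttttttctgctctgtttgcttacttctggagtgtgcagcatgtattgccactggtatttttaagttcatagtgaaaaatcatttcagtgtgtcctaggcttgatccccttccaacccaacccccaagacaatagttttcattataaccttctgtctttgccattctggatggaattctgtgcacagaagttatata
The letters began 189 bases before the start of Fmod and 241 bases before that of Ucma. No window of Scx, Mkx, Col1a1, Col2a1 or Eln was in the table used here.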

How the data were processed

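Bulk poly(A) RNA of Achilles tendon from Scx KO and wild-type (Wt) mice was extracted with TRIzol. It was sequenced from NEBNext directional libraries, 2 of each genotype. The authors aligned the reads to GRCm38 with HISAT2 2.0.4 and made gene read counts with featureCounts 1.5.0, as the submitters' processing notes state, and the deposited counts are whole numbers without normalization (the strand setting and annotation release are not given in the sources used here). The deposited single-cell table holds UMI counts per gene and well, also without normalization. Of 47729 gene IDs, 47224 matched a symbol.

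The test was the quasi-likelihood model of edgeR 4.0.16 (R 4.3.3), after filterByExpr and with TMM factors, and with Benjamini-Hochberg adjustment over all genes tested. A gene was called at an adjusted p under 0.05. DESeq2 1.42.0, its size factors, no filter, the replicate number as a block, leaving out each library and leaving out muscle and red blood cell genes were alternatives, and the procedure was tested on simulated data. Totals ranged from 11188270 to 12398560 counts, and counting intervals (95%) and floors (3 counts) cover counting error only. Lengths of union exons came from GENCODE vM21 and promoter windows from RefSeq (GRCm38.p6).

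Single-cell UMIs were summed per plate over cells with at least 200 genes, and no test was run on them. The shares of genes were taken over genes with a mean of at least 5 CPM over the 12 plates. Single named genes are given without that minimum. The comparison, gene lists and named genes were chosen with earlier results of these data known. Named were Scx, Bop1 and genes of the study's text, from each list the called members with the largest change and the most abundant members, and outside the lists the 15 largest changes each way among called genes with a mean of at least 5 CPM, groups that do not overlap and a symbol that is not of a predicted gene. Genes named beyond this rule were chosen after their values were seen, and a few genes that it names are not reported here.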

Additional observations from a re-analysis of the deposited data

How the results depend on the processing

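The number of calls, 560 with the settings of the report, was 822 with DESeq2 (412 higher and 410 lower), 567 with DESeq2 size factors, 557 without muscle fibre and red blood cell genes and 1415 without the filter on low counts (727 higher and 688 lower). Leaving out the muscle and red blood cell genes drops those genes only. It does not adjust other genes for the muscle share of a library. Leaving out each library in turn gave 380 to 666 calls, 191 to 361 higher and 189 to 332 lower. DESeq2 kept 555 of the 560 calls, all in the same direction. Deviations of same-numbered libraries from their group had a correlation of 0.0715. This is 1 value from 2 libraries a group, and it cannot show whether the replicate numbers pair littermates. With the replicate number as a block 1108 genes were called, 541 higher and 567 lower, all 560 calls of the report among them. Some named genes that edgeR did not call changed sign when 1 library was left out, and the cause was not tested. Their log2 fold changes then ranged from -0.44 to 0.27 (Aldh1a2), -0.34 to 0.38 (Axin2), -0.62 to 0.00721 (Chodl), -0.057 to 0.17 (Col6a1), -0.16 to 0.088 (Col6a3), -0.026 to 0.17 (Dcn), -0.24 to 0.025 (Ecm2), -1.06 to 0.73 (Egr1), -1.13 to 0.16 (Fos), -0.095 to 2.38 (Myh4), -0.32 to 0.22 (Sox6), -0.36 to 0.66 (Sox9) and -0.19 to 0.045 (Tgfb2). The share of genes with all T9 plates above T0 ranged from 18.4% to 20.4% over all genes when 1 plate was left out, from 17.8%. Genes under about 1 CPM rest on few counts, and with 2 libraries a group changes such as that of Sox9 are not resolved at this depth.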

Other observations

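Lists chosen after the values were seen gave further groups, reported as values only. Of 17 p53 target genes, 4 were called higher in Scx KO and none lower by edgeR (0 lower also at an unadjusted p under 0.05 and by DESeq2). Cdkn1a, the cell cycle inhibitor p21, stood at 66.7 and 75.5 CPM in Wt and 257 and 258 CPM in Scx KO (log2 fold change 1.86 ± 0.15, adjusted p = 0.000262), and both Scx KO libraries were far above both Wt libraries. Eda2r, a receptor of the TNF family, stood at 14.8 and 16.9 CPM in Wt and 69.3 and 93.1 CPM in Scx KO (log2 fold change 2.35 ± 0.20, adjusted p = 0.000284) and Phlda3, an inhibitor of Akt, at 86.3 and 82.97 CPM in Wt and 177 and 194 CPM in Scx KO (log2 fold change 1.13 ± 0.15, adjusted p = 0.00315). Perp, a desmosome protein, was the other call (log2 fold change 2.45 ± 0.35, adjusted p = 0.00486), while Mdm2, the main feedback gene, stood at 34.5 and 43.8 CPM in Wt and 55.6 and 82.7 CPM in Scx KO and was not called (log2 fold change 0.82 ± 0.22, adjusted p = 0.077).

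Of 15 hypoxia response genes, Car9 and P4ha1 alone were called, both lower. Vegfa, the vascular growth factor, stood at 127 and 148 CPM in Wt and 90.97 and 100.2 CPM in Scx KO (log2 fold change -0.53 ± 0.15, adjusted p = 0.104) and Ldha, of glycolysis, at 451 and 833 CPM in Wt and 1095 and 1163 CPM in Scx KO (log2 fold change 0.81 ± 0.28, adjusted p = 0.164), and neither was called. Of 18 interferon response genes, 2 were called higher by edgeR and DESeq2, the GTPase Igtp, 11.05 and 9.77 CPM in Wt and 37.5 and 35.6 CPM in Scx KO (log2 fold change 1.81 ± 0.20, adjusted p = 0.00129), and the chemokine Cxcl9 given above. The related GTPases Irgm1 (0.12 ± 0.25) and Gbp2 (-0.18 ± 0.30), as log2 fold changes, were not called.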
